A study of Mus musculus with 8 samples.

Results

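The 4 libraries described here are RNA from Pontin WT mouse embryonic fibroblasts (MEFs), 2 from cells in normal medium and 2 from cells starved of glucose, out of 8 libraries in the series. The libraries were assigned to their groups by the sample labels. The cells derive from Pontin f/f MEFs, immortalised by serial passaging, in which endogenous Pontin (the AAA+ ATPase encoded by Ruvbl1) was deleted with a Cre virus and replaced from a lentivirus by Flag-tagged Pontin. The WT line carries the unchanged protein, and the RA line, which supplies the other 4 libraries, carries Pontin with 2 arginines changed to alanine. Normal cells were in DMEM with fetal bovine serum, and starved cells in glucose-free DMEM with dialyzed fetal bovine serum, so the media differed in serum as well as in glucose and their parts in the response cannot be told apart. Each genotype is 1 hygromycin-selected line, and neither the length of the starvation before RNA extraction nor separate cultures for the replicates are given in the sources used here, so p-values measure the spread between these libraries, which may be technical.

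Glucose feeds glycolysis, the pentose phosphate pathway and protein glycosylation, and cells sense its loss through several routes. The kinase AMPK is activated as ATP falls, and it restrains mTORC1 and turns on autophagy. Unfolded or under-glycosylated proteins in the endoplasmic reticulum (ER) activate the sensors PERK, IRE1 and ATF6, and phosphorylation of eIF2alpha by PERK or by the amino acid sensor GCN2 favours translation of the transcription factor ATF4. When mTORC1 is restrained, the MiT/TFE factors (TFEB, TFE3, MITF) enter the nucleus and activate lysosomal and autophagy genes, and FOXO factors act alongside them. Sterol-regulated SREBP factors, E2F and the DREAM complex, YAP and SRF, and the interferon-regulated factors IRF and STAT control other gene groups examined below, namely lipid synthesis, the cell cycle, the matrix and cytoskeleton, and antiviral defence.

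Letters that match the motifs of these factors stand close to the starts of some of the genes that the results turn on. RefSeq promoter windows (GRCm38.p6, 250 bases before to 50 after each annotated start) were matched by symbol for 954 of the 1244 genes of the 55 pathway lists found in the table. A stretch of 60 bases upstream of the start is shown for a few genes that hold a match and changed strongly under starvation. It is read 5′ to 3′ on the strand of the gene, with the searched motif in capitals on whichever strand it matched. Genes higher in starved WT cells come first, with the C/EBP-ATF response element (TGATGNAA), the ER stress element (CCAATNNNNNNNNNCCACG) and the CLEAR core of lysosomal genes (TCACGTGA, which contains the E-box CACGTG).
Chac1 (chr2:119351023-119351082, plus strand): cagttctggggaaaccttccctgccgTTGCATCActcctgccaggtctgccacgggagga
Asns (chr6:7693210-7693269, minus strand): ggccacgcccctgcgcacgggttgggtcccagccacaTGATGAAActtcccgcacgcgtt
Aars (chr8:111033704-111033763, plus strand): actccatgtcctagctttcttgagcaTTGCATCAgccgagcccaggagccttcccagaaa
Hspa5 (chr2:34772005-34772064, plus strand): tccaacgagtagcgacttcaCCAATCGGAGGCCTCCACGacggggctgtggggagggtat
Calr (chr8:84847054-84847113, minus strand): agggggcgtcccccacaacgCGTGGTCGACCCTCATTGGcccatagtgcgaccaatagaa
Hsp90b1 (chr10:86705512-86705571, minus strand): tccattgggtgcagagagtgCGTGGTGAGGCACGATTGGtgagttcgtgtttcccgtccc
Mcoln1 (chr8:3500447-3500506, plus strand): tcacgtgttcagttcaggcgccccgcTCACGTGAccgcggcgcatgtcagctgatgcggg
Ctsa (chr2:164833713-164833772, plus strand): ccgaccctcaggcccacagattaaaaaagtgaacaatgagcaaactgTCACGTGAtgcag

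Genes lower in starved WT cells follow. The motifs are the paired carbohydrate response half-sites read by the glucose-responsive factors ChREBP and MondoA (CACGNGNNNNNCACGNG), the sterol response element of SREBP (TCACNCCAC), the cell cycle homology region (TTTGAA) and the interferon-stimulated response element (TTTCNNTTTC). Within its stretch, Ifit1 holds 2 matches of the last motif and Isg15 holds 3 that overlap.
Txnip (chr3:96557851-96557910, plus strand): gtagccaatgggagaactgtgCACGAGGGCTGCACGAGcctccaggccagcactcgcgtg
Hmgcs1 (chr13:119690189-119690248, plus strand): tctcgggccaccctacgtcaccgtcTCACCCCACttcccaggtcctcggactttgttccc
Cdk1 (chr10:69352913-69352972, minus strand): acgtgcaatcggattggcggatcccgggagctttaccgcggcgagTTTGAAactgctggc
Ifit1 (chr19:34640779-34640838, plus strand): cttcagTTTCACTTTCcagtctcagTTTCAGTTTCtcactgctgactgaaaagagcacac
Isg15 (chr4:156200850-156200909, minus strand): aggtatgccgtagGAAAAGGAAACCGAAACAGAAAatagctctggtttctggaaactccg
Cxcl10 (chr5:92349068-92349127, minus strand): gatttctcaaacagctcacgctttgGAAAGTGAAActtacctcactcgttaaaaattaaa

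The C/EBP-ATF element was found in 5 of the 17 ATF4 and CHOP regulators with a window (29.4%) and in 3 of 16 genes of amino acid synthesis (18.8%), against 2.66% of the 10351 tested genes and 4.51% of the 27025 genes with a window. Txnip was the only 1 of 5 glucose-sensing genes with the paired half-sites, which 0.0966% of tested genes and 0.0555% of all genes held. The CLEAR core stood in 3 of 32 lysosomal hydrolase genes (9.38%) and 3 of 14 genes of the lysosomal membrane (21.4%), against 2.13% of tested genes and 1.12% of all. The shorter E-box was found in 34.4% and 28.6% of the same lists, against 11.5% and 8.09%. It was not particular to them, being found also in 8 of 31 ribosome biogenesis genes (25.8%) and 3 of 5 glucose-sensing genes. An E2F element (TTTCCCGC or TTTGGCGC) was present in 11 of 33 replication genes (33.3%), against 3.33% and 1.8%. No FOXO element (GTAAACA) was found in the 15 windows of autophagy initiation genes. It was held by 3.05% of tested genes and 4.05% of all genes. At such low shares 15 windows are too few to tell a lack of the element from its usual frequency. The FOXO response elements that the paper examined at Map1lc3b, a gene of another list, lie farther upstream than these windows reach. By chromatin immunoprecipitation the paper also examined a FOXO response element at Atg14, which is in the initiation list. It reports FOXO3a recruitment under starvation but gives no distance of that element from the start. A match is a description of letters in a window and no measurement of binding, and several of these lists were drawn up from known targets of the factor. The sterol response element was found in 1 of 14 fatty acid synthesis genes (7.14%), against 1.37% and 1.44%. For the ER folding, mitotic, interferon-stimulated and cholesterol lists fewer than 80% of members had a window, so their shares were void as a comparison. Their motifs stood in 7 of 16 windows of ER folding genes (ER stress element), 20 of 30 of mitotic genes (cell cycle homology region), 13 of 23 of interferon-stimulated genes (interferon-stimulated response element) and 1 of 19 of cholesterol genes (sterol response element). The short cell cycle motif is common, at 14.7% of tested genes, and only 11 of the 30 mitotic genes held it in the 250 bases upstream.

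Depth was alike in the 8 libraries, at 43205841 to 56363034 recovered reads, so that 3 reads correspond to a value of 0.0548 to 0.0652 in the WT libraries. Values are CPM, read counts over a library size that the authors scaled. The fibroblast identity of the cells was checked with markers. Of 12 fibroblast markers, 11 passed the filter on low values, and their summed value was 11292 to 11402 in normal and 5883 to 5976 in starved WT libraries, with 9 called lower and 1 higher. Among markers of other cells, Krt5, Krt14, Cldn5, Tie1, Ptprc, Cd3e, Olig2, Myod1, Myog and Myf5 were listed at 0 in the 4 WT libraries. The summed endothelial markers, mainly Vwf, went from 2.82 to 3.74 up to 23.0 to 24.1, and the summed epithelial markers, mainly Krt19, from 83.2 to 89.9 down to 37.3 to 38.8. Neural markers went from 44.2 to 44.6 down to 26.0 to 28.8, leukocyte markers from 21.2 to 22.0 up to 26.8 to 27.1, and muscle markers from 1.83 to 2.34 up to 3.73 to 4.24. Ruvbl1, which both lines express by design and which therefore does not check the labels, was at 28.4 and 27.6 in normal and 27.9 and 28.4 in starved WT cells (limma, adjusted p = 0.896).

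Glucose starvation changed most of the transcriptome of the WT line. Among the 16232 genes that reached a value of 1 in 2 or more libraries, 6387 were higher (39.3%) and 6369 lower (39.2%) in starved than in normal WT cells at a Benjamini-Hochberg adjusted p below 0.05, in a limma fit on log2(CPM + 1). At least 2-fold changes on that scale were fewer, with 1272 genes higher (7.84%) and 1907 lower (11.7%). The median log2 difference of all tested genes was 0.005, and the 5th and 95th percentiles were -1.57 and 1.22. Because 12756 genes in all were called, the counts of the lists are read against 39.3% and 39.2%, and the median and the 2-fold counts carry more of the description. These are bulk libraries, in which fewer cells of a state and less RNA per cell cannot be told apart.

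**Figure D1:**
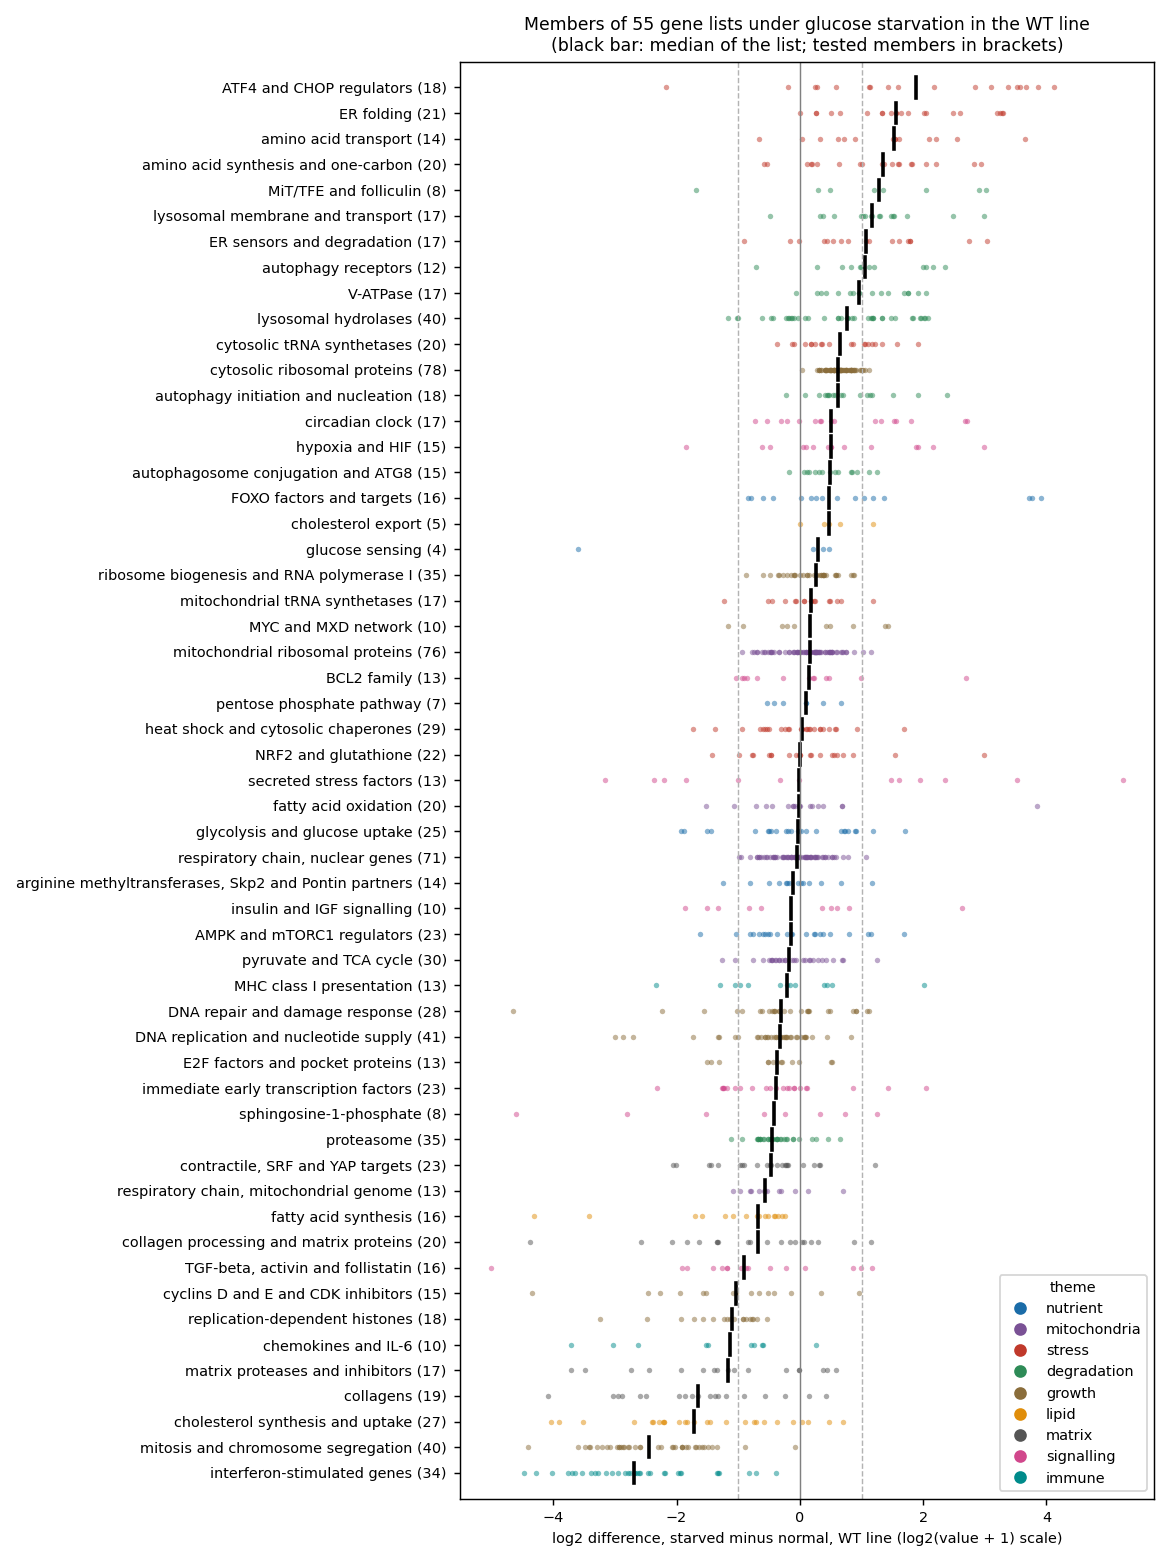
Log2 difference between starved and normal WT cells (x axis, log2(CPM + 1) scale) for the tested members of 55 gene lists (y axis, 1 row per list, 1 point per gene), with the median of each list as a black bar, all genes as a grey line and 2-fold as dashed lines. ATF4 and CHOP regulators have the highest median of the 55 lists (1.88) and interferon-stimulated genes the lowest (-2.69).

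Thioredoxin-interacting protein (Txnip), which restrains glucose uptake and is transcribed in proportion to glucose, was among the genes that fell. Its value was 24.9 and 24.5 in normal WT cells and 1.26 and 0.987 in starved cells, 22.0-fold lower (log2 difference -3.60, SE 0.106, limma adjusted p = 4.59e-15). The groups did not overlap, which was so for 88.7% of all tested genes. The predicted gene Gm15441 overlaps Txnip on the other strand and fell too, by 3.62 on the log2 scale, and reads of the pair may not have been separated. The related arrestin Arrdc4 had values below 1, at 0.435 and 0.564 before and 0.671 and 0.804 after starvation, and did not pass the test (adjusted p = 0.175 in limma). The sensors themselves were modestly higher: Mlxip, which encodes MondoA, by a log2 difference of 0.47, and its partner Mlx by 0.37. Of the 4 tested glucose-sensing genes these 2 were higher and Txnip was lower (median 0.29).

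Glycolysis as a whole did not move in 1 direction. Of 25 tested genes of glycolysis and glucose uptake, 9 were higher and 11 lower, with a median of -0.02. The glucose transporter Slc2a1 (GLUT1) went from 93.6 and 92.6 to 175 and 173, and hexokinase 2 (Hk2) from 37.7 and 34.4 to 60.3 and 59.8. Enolase isoforms moved apart: Eno2 was 3.47-fold higher and Eno3 3.90-fold lower. The lactate and pyruvate transporter Slc16a1 (MCT1) was 2.31-fold higher, and Pkm, which encodes pyruvate kinase, was 1.17-fold lower. Pyruvate dehydrogenase kinases, which close the entry of pyruvate into the TCA cycle, also split, with Pdk1 2.43-fold higher and Pdk4 2.96-fold lower. Of the 30 genes of pyruvate use and the TCA cycle, 9 were higher and 17 lower (median -0.18), and Ogdh, a TCA cycle dehydrogenase, was 2.09-fold lower. In the pentose phosphate pathway 3 of 7 genes were higher and 3 lower, with the NADPH-producing G6pdx and Pgd 1.21-fold and 1.45-fold lower. Fatty acid oxidation was mixed as well (7 higher and 6 lower of 20, median -0.02, a sign that turned when 1 library was left out), although the acyl-CoA thioesterase Acot2 went from 3.2 and 3.69 to 64.1 and 60.8, while the carnitine transferase Cpt1a missed the threshold at 40.0 and 39.2 against 36.0 and 37.0 (limma adjusted p = 0.0633, passed under 3 alternatives).

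The integrated stress response contained some of the steepest rises. Of the 18 tested ATF4 and CHOP regulators and targets, 16 were higher and 2 lower in starved WT cells, 13 of them at least 2-fold higher, with a median log2 difference of 1.88 against 0.005 for all genes. Ddit3, which encodes the pro-apoptotic factor CHOP, went from 48.7 and 49.7 to 854 and 902, 17.8-fold (log2 difference 4.13, SE 0.041, limma adjusted p = 1.44e-20). Ppp1r15a (GADD34), which brings a phosphatase to eIF2alpha, went from 39.6 and 37.3 to 566 and 584. The glutathione-degrading enzyme Chac1, whose upstream C/EBP-ATF match is printed above, went from 16.9 and 17.5 to 229 and 230. For each of the 3 genes both starved libraries stood far above both normal ones, and replicates lay close together. The pseudokinase Trib3 was 10.9-fold higher. Atf4 itself, which is controlled largely at translation, was 2.18-fold higher. The exceptions were eIF2alpha kinases: Eif2ak2 (PKR), which is also interferon-induced, was 4.65-fold lower, and Eif2ak4 (GCN2) 1.15-fold lower, a call lost without WT starved replicate 2 (log2 difference -0.12).

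Amino acid supply genes, many of them ATF4 targets, moved with this group. In amino acid synthesis and one-carbon metabolism 17 of 20 tested genes were higher and 2 lower (median 1.35), and in amino acid transport 12 of 14 were higher and 1 lower (median 1.53). Asparagine synthetase (Asns) went from 116 and 128 to 426 and 433 (log2 difference 1.81, SE 0.0444). Cystathionine gamma-lyase (Cth), which makes cysteine, went from 17.5 and 16.9 to 140 and 138. Mitochondrial folate enzymes were among the risers, with Aldh1l2 7.13-fold and Mthfd2 2.85-fold higher, although Aldh1l2 overlaps D10Wsu102e. By contrast the cytosolic folate enzyme Mthfd1 was 1.5-fold lower. Among transporters, the cationic amino acid transporter Slc7a3 went from 5.98 and 4.78 to 78.6 and 79.8. The cystine-glutamate antiporter Slc7a11 went from 12 and 11.7 to 36.5 in both starved libraries, and both chains of the large neutral amino acid exchanger rose, Slc7a5 by 2.92-fold and Slc3a2 by 4.30-fold.

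Cytosolic tRNA synthetases, which charge tRNAs with amino acids, were mostly higher (16 of 20, 3 lower, 8 at least 2-fold higher, median 0.65). Tryptophanyl-tRNA synthetase (Wars) went from 83.6 and 81.5 to 310 and 315, and Sars, Aars and Gars were 2.98-fold, 2.16-fold and 2.05-fold higher. The changes were not general, since Dars and Hars were 1.30-fold and 1.09-fold lower (the call of Hars was lost under 3 alternatives). Their mitochondrial counterparts had a median of 0.17 (9 of 17 higher, 4 lower), with Fars2 2.39-fold higher and Iars2, which overlaps Rab3gap2, 1.43-fold lower.

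Genes of ER protein folding and quality control formed another block that rose. All but 1 of 21 tested folding genes were called higher, 16 of them at least 2-fold (median 1.57), and the summed value of the list went from 8891 and 9099 to 26770 and 27862. The exception, named for that reason after its values were seen, was the translocon subunit Sec61b at 88.9 and 87.0 against 88.8 and 87.8 (limma adjusted p = 0.893). BiP (Hspa5), the main ER HSP70, went from 1253 and 1286 to 3893 and 4068 (log2 difference 1.65, SE 0.0446). Calreticulin (Calr), a lectin chaperone of glycoproteins, went from 1570 and 1608 to 6246 and 6604. These genes, with Hsp90b1 (GRP94, 2.96-fold higher, overlapping 1810014B01Rik), hold the ER stress element shown above. The co-chaperones Dnajb9 and Sdf2l1 and the oxidase Ero1lb changed by larger factors, with Dnajb9 10.5-fold, Ero1lb 11.2-fold and Sdf2l1 9.85-fold higher. Among sensors and ER-associated degradation genes 14 of 17 were higher and 2 lower (median 1.07). Herpud1, a scaffold of the degradation complex, went from 86.8 and 90.9 to 739 and 737, Sel1l was 6.78-fold higher, and the IRE1 target Xbp1 2.12-fold. The cytosolic ATPase Vcp, which extracts proteins from the ER membrane, was 1.87-fold lower.

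Other stress programmes did not share this movement. Heat shock and cytosolic chaperone genes were split, 12 higher and 12 lower of 29, with a median of 0.03 that turned negative under 3 other scalings or tools. The stress-induced HSP70 genes Hspa1a and Hspa1b, near-identical copies, missed the threshold in limma with 76.2 and 73.6 against 81.7 and 78.1 and 120 and 119 against 125 and 121 (adjusted p = 0.111 and 0.384). The constitutive Hspa8 was 1.91-fold higher and the small chaperones Hspb8 and Cryab 3.42-fold and 2.71-fold lower. The NRF2 and glutathione list was split in the same way, 10 higher and 8 lower of 22, and its median of -0.001 changed sign with quantile normalization. Heme oxygenase (Hmox1) went from 64.8 and 65.7 to 525 and 523, and the glutathione-synthesis subunit Gclc was 2.95-fold higher, whereas the NRF2 targets Nqo1, Gclm and Gsr were 1.74-fold, 1.39-fold and 2.01-fold lower. Proteasome subunits were lower in 30 of 35 cases and higher in 4 (median -0.45). The base subunits Psmd1 and Psmc3 were 2.19-fold and 1.92-fold lower, and the ubiquitin receptor Psmd4 1.57-fold higher.

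Autophagy genes were mostly higher. In the initiation and nucleation list 16 of 18 genes were called higher and 1 lower (median 0.62), in the conjugation and ATG8 list 11 of 15 were higher and none lower (median 0.50), and among receptors 11 of 12 were higher and 1 lower (median 1.06). The initiating kinase Ulk1 went from 33.6 and 33.4 to 72.5 and 71.8, and its partner Atg13 was 3.89-fold higher. Atg14, which directs the lipid kinase VPS34 to the ER, went from 9.09 and 11.4 to 59.0 and 56.5. Of the ATG8 proteins that coat the autophagosome, Map1lc3b was 2.18-fold and Gabarap 1.79-fold higher. Gabarapl1 was 1.91-fold higher but overlaps 1700101I11Rik. The receptor Sqstm1 (p62) went from 184 in both normal libraries to 727 and 752. Bnip3, a mitophagy receptor, was 4.64-fold higher (it overlaps Gm45507 on the other strand), and Calcoco1, an ER-phagy receptor, 5.33-fold higher. Wipi1 and the mitophagy receptor Fundc1 were the lower members, by 1.17-fold and 1.68-fold.

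The lysosome, where autophagic cargo is degraded, showed the same direction. Of 17 lysosomal membrane and transport genes 16 were higher and 1 lower (median 1.18), and of 40 hydrolase genes 25 were higher and 10 lower (median 0.76). The calcium channel Mcoln1, with the CLEAR core printed above, went from 42.8 and 43.0 to 247 and 241 (log2 difference 2.48, SE 0.0413). The cystine exporter Ctns went from 8.31 and 7.98 to 70.6 and 72.7. Lamp1, an abundant membrane glycoprotein, was 2.04-fold higher, and Scarb2 was the only member called lower, by 1.41-fold. Among hydrolases the proteases Ctsa, Tpp1 and Ctsb were 3.92-fold, 4.29-fold and 2.23-fold higher, while the glycosidase Gusb and the sulfatase Ids were 2.07-fold and 2.08-fold lower. The V-ATPase, which acidifies the lumen, had 16 of 17 subunit genes called higher and none lower (median 0.96), and the summed list went from 1265 and 1304 to 2776 and 2859. Atp6v0b, which overlaps Gm12841, was 4.20-fold and Atp6v1c1 3.79-fold higher, and the uncalled subunit was Atp6v0a1, named after its values were seen (33.4 and 29.3 against 29.9 and 29.6).

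Regulators of these organelles were also measured. In the list of MiT/TFE factors and folliculin partners 6 of 8 were higher and 1 lower (median 1.28). Folliculin (Flcn), which lets mTORC1 act on MiT/TFE factors, went from 32.8 and 32.0 to 251 and 248, and its partner Fnip1 from 34.0 and 35.2 to 145 in both libraries. The Rag GTPase Rragd, itself a MiT/TFE target, went from 0.826 and 1.05 to 14.6 and 14.7. Of the factors, Tfe3 was 1.41-fold higher, Mitf did not pass (limma adjusted p = 0.0531, a call gained under 5 alternatives) and Tfeb was 4.61-fold lower. Among 23 AMPK and mTORC1 regulators 9 were higher and 12 lower (median -0.15). The stress-induced mTORC1 inhibitors Sesn2 and Ddit4 were 3.36-fold and 1.74-fold higher, while Sesn1 was 3.42-fold lower. The FOXO list had 10 of 16 genes higher and 4 lower (median 0.48). Foxo3 went from 17.5 and 17.0 to 38.5 and 34.4 and Foxo1 was 1.60-fold lower. Gadd45a, a stress gene shared by FOXO, p53 and ATF4, went from 11.6 and 11.2 to 167 and 170 (it overlaps E230016M11Rik), and Klf15, a fasting-induced factor, from 0.348 and 0.202 to 19.2 and 17.0. Carm1 and Skp2, the arginine methyltransferase and the ubiquitin ligase subunit studied together with Pontin, were 1.13-fold and 2.42-fold lower, although Carm1 overlaps Yipf2. Their list, which also holds other arginine methyltransferases and Pontin partners, had 4 of 14 genes higher and 7 lower (median -0.11).

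Secreted and signalling genes moved in both directions. The secreted stress factors had 6 of 13 called higher and 6 lower, and 11 of these changed at least 2-fold, so their median of -0.02 (positive under quantile normalization) describes few of them. Angptl6, an angiopoietin-like hepatokine that overlaps A230050P20Rik, had the largest log2 difference on the log2(CPM + 1) scale among the list members named here, from 3.5 and 3.08 to 159 and 163 (log2 difference 5.24, SE 0.0671). Stc2 went from 3.09 and 2.94 to 45.3 and 44.7, and the angiogenic factor Vegfa from 66.7 and 66.2 to 344 and 341. Gdf15, a stress hormone, went from 0.522 and 0.322 to 3.69 and 5.41. The lipoprotein lipase inhibitor Angptl4 and the cytokine Lif were 24.9-fold and 8.72-fold lower. Hypoxia and HIF genes were higher in 10 of 15 cases and lower in 3 (median 0.50), led by Ndrg1 (8.03-fold) and with the vasodilator peptide Adm 4.01-fold lower. The circadian clock list had 12 of 17 genes higher and 3 lower (median 0.50). Nr1d2, Ciart and Rora were 2.93-fold, 7.71-fold and 9.56-fold higher, and the period genes split, Per1 1.26-fold higher and Per2 and Per3 1.55-fold and 1.73-fold lower. In the BCL2 family 6 of 13 were higher and 6 lower (median 0.15), among them the pro-apoptotic BH3-only gene Pmaip1 (NOXA), which went from 10.1 and 10 to 69.4 and 72.2, and the anti-apoptotic Bcl2l1, which was 1.95-fold lower.

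Ribosomal protein genes, which encode the subunits of the cytosolic ribosome, rose together by a modest factor. Of 78 tested genes 77 were called higher and none lower, only 4 of them at least 2-fold (median 0.62), and the summed value went from 49287 and 50760 to 76947 and 80487. Rpl3 went from 1097 and 1131 to 2349 and 2493, and Rpl13a was 2.08-fold higher. Many of these genes have processed pseudogenes, so the split of reads among copies is uncertain. Rpl27, named after its values were seen, was the gene not called (409 and 406 against 407 and 430). Ribosome biogenesis was less uniform, with 22 of 35 genes higher, 8 lower and none at 2-fold (median 0.27), and nucleolin (Ncl) did not pass the test at 1283 and 1278 against 1291 and 1368 (limma adjusted p = 0.25). Myc was 1.82-fold higher, in a MYC and MXD list with 5 of 10 higher and 3 lower (median 0.17).

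Nuclear genes for mitochondrial proteins had medians near that of all genes. Nuclear-encoded respiratory chain genes had 25 of 71 higher and 29 lower (median -0.05), near the shares of all genes. Complex III subunits stood on both sides, with Uqcrq 2.12-fold higher and Uqcrh 1.99-fold lower. Mitochondrial ribosomal proteins had 40 of 76 higher and 19 lower (median 0.17). Of the 13 protein-coding genes of the mitochondrial genome 10 were lower and 2 higher (median -0.56), but their summed value overlapped between groups, at 22974 and 23287 in normal and 22418 and 24113 in starved cells. The complex IV gene mt-Co1 went from 6103 and 6212 to 9718 and 10300 (limma adjusted p = 8.06e-09, a call that quantile normalization removes), and mt-Cytb and mt-Nd3 were 1.95-fold and 2.14-fold lower.

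Most cell cycle genes fell, those of mitosis and the histones among them. Of 40 tested genes of mitosis and chromosome segregation 39 were called lower, 38 of them at least 2-fold, and none higher (median -2.44). Their summed value went from 4605 and 4659 to 921 and 922, 5.02-fold lower. Cyclin B1 (Ccnb1) went from 195 and 201 to 16.4 and 17.2 (log2 difference -3.48, SE 0.0442, limma adjusted p = 1.73e-19), and its kinase Cdk1 from 248 and 251 to 34.9 and 32.8. Polo-like kinase 1 (Plk1) was 27.3-fold, the centromeric histone Cenpa 13.2-fold and the proliferation marker Mki67 7.86-fold lower. The gene not called was securin (Pttg1), named after its values were seen, at 13.9 and 15.7 against 12.8 and 15.3. Replication-dependent histones were lower in 18 of 18 tested genes, out of 31 listed. The filter could be passed through normal libraries alone, where these genes were higher, so this count is no support for a fall. The sum of the 31 listed genes was low, at 151 and 149 in normal and 25.3 and 27.3 in starved cells, 5.69-fold lower. The median of the tested genes was -1.10, and it was -2.10 with a pseudocount of 0.1, -0.33 with a pseudocount of 5, -2.35 in edgeR and -2.32 in DESeq2. Hist1h1c went from 33.3 and 32.0 to 2.56 in both starved libraries. Histone genes are near-identical copies, and the share of each in the reads is uncertain. How fully the library kit captured histone mRNA was not tested, so these values may not follow total histone mRNA.

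The replication machinery was less affected. Of 41 genes of DNA replication and nucleotide supply 30 were lower, 8 at least 2-fold, and 4 higher (median -0.33). Thymidine kinase (Tk1) went from 117 and 122 to 13.4 and 14.9, and the reductase subunit Rrm2 was 6.83-fold lower. Within the MCM helicase Mcm5 was 2.08-fold lower and Mcm2 1.07-fold higher, a call lost under 8 of the alternatives tried, and the licensing factor Cdt1 was 1.37-fold higher. The E2F and pocket protein list had 10 of 13 genes lower and 2 higher (median -0.37), with the activator E2f1 1.43-fold higher and the repressors E2f7 and E2f8 2.80-fold and 2.72-fold lower. Among cyclins and CDK inhibitors 13 of 15 were lower and 2 higher (median -1.04). Cyclin D1 (Ccnd1), the growth-factor-sensitive partner of Cdk4, went from 337 and 338 to 16.5 and 15.0, 21.5-fold lower, and the inhibitor Cdkn1a (p21) from 9.87 and 10.3 to 18.4 and 22.9. DNA repair genes were divided, 10 of 28 higher and 16 lower (median -0.30), with the p53 targets Mdm2, Ddb2 and Xpc 1.90-fold, 2.24-fold and 2.26-fold higher, Ddb2 overlapping Acp2.

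Sterol and fatty acid synthesis was lower along its length. In cholesterol synthesis and uptake 22 of 27 genes were lower, 17 at least 2-fold, and 2 higher (median -1.72), and the sum was 3.05-fold lower. Hmgcs1, which makes HMG-CoA, went from 225 in both normal libraries to 33.6 and 34.1 (log2 difference -2.70, SE 0.0455, limma adjusted p = 4.09e-18). Later enzymes fell as well, Idi1 by 12.1-fold and Sqle by 3.63-fold. The higher members were Ebp, at 1.64-fold, and the SREBP escort Scap, at 1.39-fold. All 16 tested fatty acid synthesis genes were called lower (median -0.68). The desaturase Scd2 went from 1305 and 1320 to 123 and 121, the elongase Elovl6 from 114 and 109 to 4.44 and 4.93, and fatty acid synthase (Fasn) was 1.48-fold lower. Of 5 cholesterol export genes 4 were higher and none lower, and the exporter Abca1 overlapped between groups at 3.28 and 2.50 against 2.85 and 2.89.

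Extracellular matrix genes were mostly lower, as were the fibroblast markers given above, several of which are matrix genes, and the part of that in the result was not tested. Of 19 collagen genes 17 were lower, 14 at least 2-fold, and 2 higher (median -1.66). The chains of type I collagen, Col1a1 and Col1a2, went from 1678 and 1697 to 211 and 198 and from 2097 and 2106 to 278 and 264. Col3a1 went from 283 and 286 to 15.3 and 16.3. The basement membrane chain Col4a2 was 1.11-fold higher, a call lost under 4 of the alternatives tried. Among other matrix proteins and collagen-processing enzymes 13 of 20 were lower and 4 higher (median -0.68). Thrombospondin 1 (Thbs1), an adhesive matrix protein that activates TGF-beta, went from 2092 and 2022 to 101 and 95.1. The crosslinking oxidases Loxl2 and Lox were 6.05-fold and 1.79-fold lower, the prolyl hydroxylase subunits P4ha1 and P4ha2 2.23-fold and 1.86-fold higher, and fibronectin (Fn1) overlapped between groups at 2390 and 2324 against 2493 and 2332. Matrix proteases and inhibitors were lower in 12 of 17 cases and higher in 3 (median -1.17). The aggrecanase Adamts5 and urokinase (Plau) were 14.3-fold and 13.5-fold lower, Timp1 2.56-fold lower and Timp3, which overlaps Syn3, 1.36-fold higher.

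Contractile genes and targets of SRF and YAP were lower in 18 of 23 cases and higher in 4 (median -0.46). Ankrd1 went from 576 and 580 to 138 and 139, and Ctgf and Cyr61, the standard YAP readouts, were 4.02-fold and 1.96-fold lower. Smooth muscle actin (Acta2) was 1.18-fold lower, whereas transgelin (Tagln), another actin-binding SRF target, was 2.34-fold higher. In the TGF-beta list 12 of 16 were lower and 3 higher (median -0.91). The activin antagonist follistatin (Fst) showed, on the log2(CPM + 1) scale, the largest fall among genes with a mean of at least 10 in the WT libraries, from 131 and 134 to 3.10 and 3.22, 42.1-fold (log2 difference -5.01, SE 0.0568, limma adjusted p = 4.98e-20). The feedback inhibitor Smad7 was 2.31-fold higher. Sphingosine-1-phosphate receptors S1pr1, S1pr2 and S1pr3 were 9.66-fold, 3-fold and 31.8-fold lower, and the lyase Sgpl1, which degrades the ligand, 2.40-fold higher, in a list of 8 with 5 lower and 2 higher (median -0.41, and -0.22 with a pseudocount of 5 or -0.68 in edgeR). Immediate early genes, which respond to serum, were lower in 15 of 23 cases and higher in 4 (median -0.38, and -0.20 with a pseudocount of 5 or -0.60 in edgeR). Egr1 and Dusp5 were 2.39-fold and 5.59-fold lower, and Klf4 and Dusp4 4.35-fold and 2.71-fold higher. Insulin and IGF signalling was even, 5 of 10 higher and 5 lower (median -0.14), with the IGF-binding protein Igfbp4 7.05-fold higher and Irs1, which overlaps Gm9747, 2.98-fold lower.

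Interferon-stimulated genes fell without exception among those tested. All 34 were called lower, 31 of them at least 2-fold, with a median of -2.69, and the summed value went from 1855 and 1907 to 443 and 434. Ifit1, which binds foreign RNA caps, went from 96.8 and 95.6 to 3.48 and 3.29 (log2 difference -4.47, SE 0.0422, limma adjusted p = 1.24e-20). Ifit3 went from 80.7 and 84.8 to 3.23 and 3.34, and since Ifit genes have near-identical copies their split is uncertain. The ubiquitin-like Isg15 was 8.90-fold lower. The factor Irf7, which amplifies the interferon response, went from 34.7 and 34.4 to 5.20 and 6.03. The summed leukocyte markers were at 21.2 to 22.0 in normal and 26.8 to 27.1 in starved WT libraries, and their part in the result was not tested. Chemokines and IL-6 had 9 of 10 genes lower and none higher (median -1.14). Ccl2, a monocyte attractant, went from 143 and 153 to 11 and 9.68, and Cxcl10, an interferon-induced T cell attractant, from 53.7 and 52.5 to 6.08 and 5.19. MHC class I presentation did not follow as a whole, with 7 of 13 lower and 4 higher (median -0.22). The peptide transporter Tap1 was 6.35-fold lower, and the heavy chains H2-K1 and H2-D1 were 1.44-fold and 1.32-fold higher.

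**Figure D2:**
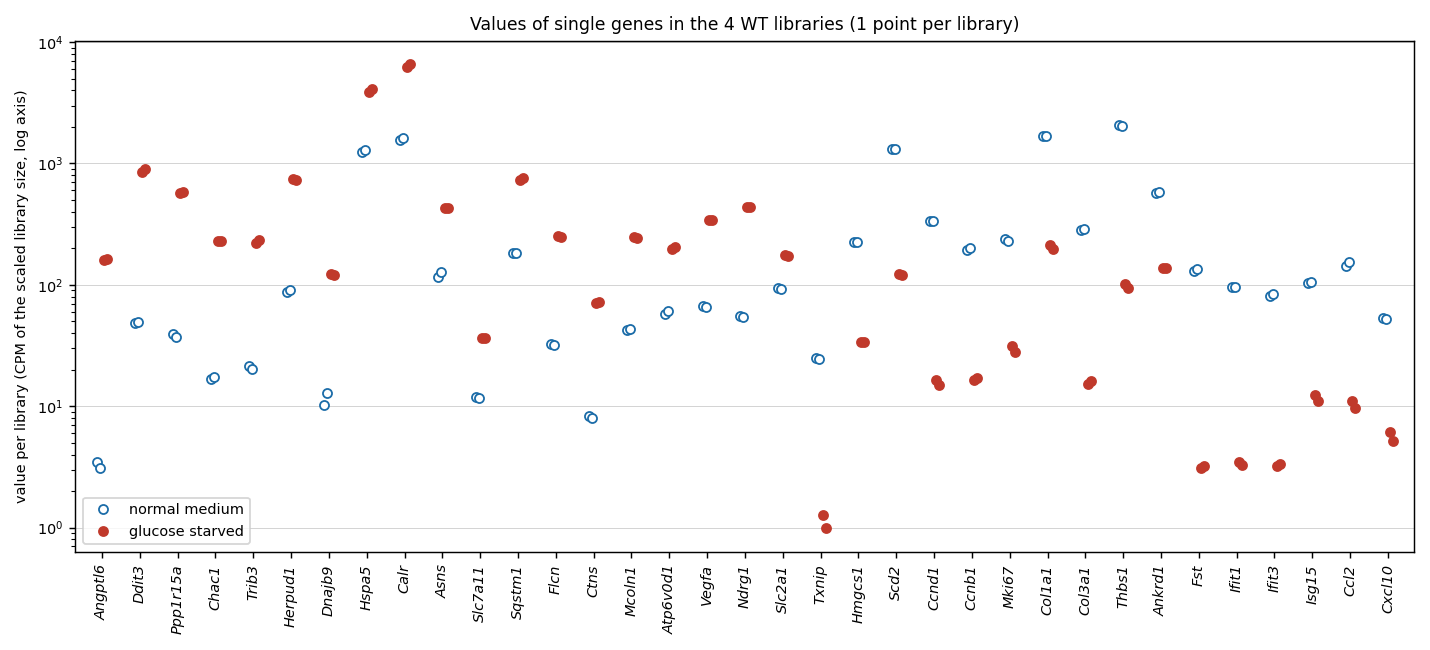
Value of single genes in the 4 WT libraries (y axis, CPM of the scaled library size, log axis; open circles normal medium, filled circles glucose starved, 1 point per library). Values in a group lie close together beside the gap between groups, for example 48.7 and 49.7 against 854 and 902 for Ddit3, and 96.8 and 95.6 against 3.48 and 3.29 for Ifit1.

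Several of the largest changes lay outside the lists. The 8 genes with the largest rise included, besides Angptl6 and Ddit3, Gm19410, Sh2d6, Avil, Plcxd2, Gm15638 and Maats1. Gm19410 went from 1.30 and 0.605 to 80.3 in both starved libraries, and Sh2d6, an SH2 domain gene, from 0.261 and 0.343 to 41.6 and 39.8. The actin-severing advillin gene Avil went from 1.65 and 1.85 to 82.1 and 78.1. Plcxd2 and Gm15638 moved alike, by log2 differences of 4.11 and 4.06, and whether their reads were told apart was not tested. The 8 largest falls were Fst, Pif1, S1pr3, Adcyap1r1, Gas1, Medag, Ifit1 and Synpo. The telomere-associated helicase Pif1 went from 35.5 and 32.8 to 0.461 and 0.347. The growth-arrest gene Gas1 went from 117 and 115 to 3.23 and 4.80, and the receptor gene Adcyap1r1 from 48.7 and 49.7 to 0.838 and 1.35. Synpo, which encodes an actin-associated protein, was 36.3-fold lower, and Medag, which overlaps Gm20488 on the same strand, 52.1-fold lower.

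The response of the WT line was compared with that of the RA line by the interaction term of the same limma fit, the RA response minus the WT response. It passed the threshold with the RA response above the WT response for 3972 genes (24.5%) and below it for 4235 (26.1%), and its median over all genes was -0.01. Interferon-stimulated genes differed throughout, with the RA response above that of WT for 34 of 34. Their sum in the RA line was 4378 and 4394 in normal and 6636 and 6618 in starved cells, so the lines already differed in normal medium, where WT cells had 1855 and 1907. For Ifit1 the log2 difference was -4.47 in WT and 0.43 in RA cells (interaction 4.90, limma adjusted p = 8.25e-19). For collagens the RA response was above that of WT for 18 of 19 genes and below it for none, and Col1a1 moved by -3.04 in WT and -1.29 in RA cells. The RA response was also above for 21 of 23 contractile, SRF and YAP genes (1 below), 15 of 17 matrix proteases and inhibitors (none below), 18 of 27 cholesterol genes (3 below) and 33 of 40 mitotic genes (1 below).

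The RA response was below that of WT for 77 of 78 ribosomal protein genes and 20 of 21 ER folding genes, with none above, and for 14 of 17 V-ATPase genes (1 above) and 13 of 17 lysosomal membrane genes (2 above). Calr had a log2 difference of 2.01 in WT and 0.94 in RA cells (interaction -1.07, limma adjusted p = 2.94e-09), and Map1lc3b 1.12 and 0.27. The ATF4 and CHOP list had medians of 1.88 in WT and 1.54 in RA cells, against 0.96 and 0.64 for the V-ATPase list. In the ATF4 and CHOP list the RA response was above that of WT for 4 of 18 genes and below it for 9. For some anchors of the WT response no difference was detected: the interaction was -0.03 for Txnip (SE 0.149, limma adjusted p = 0.886), -0.04 for Asns (SE 0.0628, adjusted p = 0.623), -0.12 for Hspa5 (SE 0.063, adjusted p = 0.12) and -0.02 for Herpud1 (SE 0.0553, adjusted p = 0.772), and those of Txnip and Herpud1 changed sign under other scalings and without 1 of the libraries. With a pseudocount of 5 the Txnip interaction passed the threshold at -0.31 (limma adjusted p = 0.0125). Each genotype is 1 line, so the genotype and the line cannot be told apart.

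**Figure D3:**
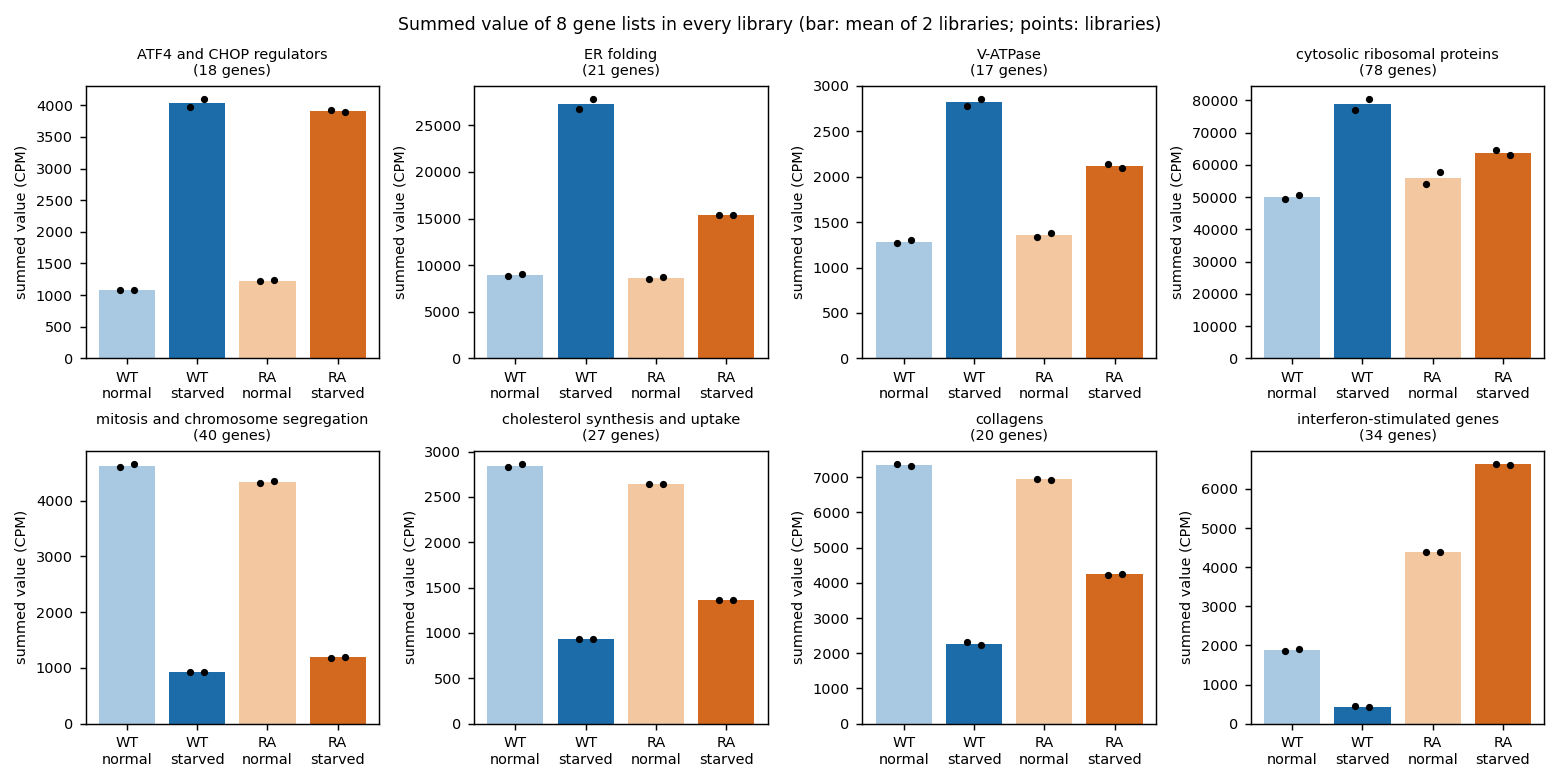
Summed value of 8 gene lists in the 8 libraries (y axis, CPM from 0; bars are means of 2 libraries, points single libraries; x axis, WT and RA lines in normal and starved medium). Starvation moves interferon-stimulated genes from 1855 and 1907 to 443 and 434 in WT cells and from 4378 and 4394 to 6636 and 6618 in RA cells, while mitotic genes are lower in both.

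**Figure D4:**
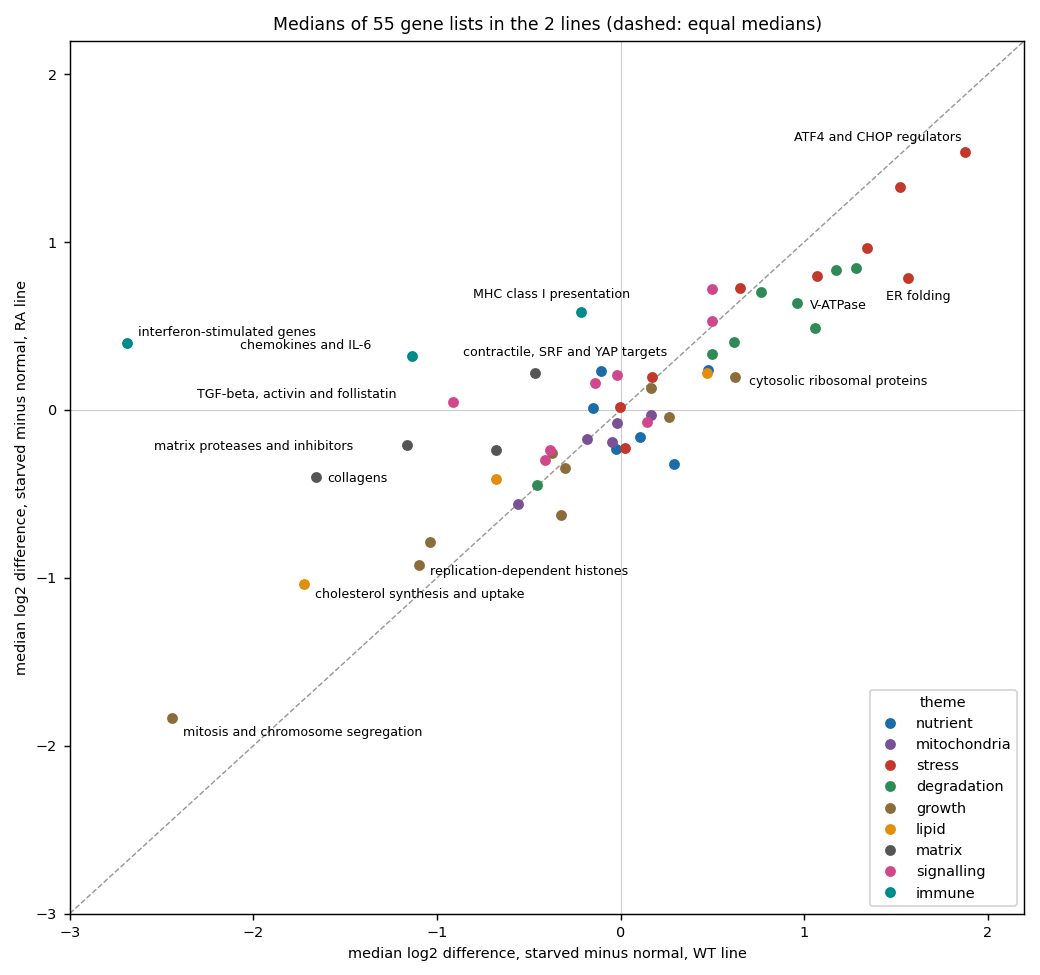
Median log2 difference between starved and normal cells of 55 gene lists in the WT line (x axis) and the RA line (y axis), 1 point per list coloured by theme, with equal medians on the dashed line. Interferon-stimulated genes stand farthest from that line (-2.69 in WT, 0.40 in RA), and ATF4 and CHOP regulators have medians of 1.88 in WT and 1.54 in RA.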

How the data were processed

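RNA was measured by paired-end sequencing (TruSeq RNA v2, Illumina HiSeq). Per the submitters' processing notes and the study's methods, reads were mapped with TopHat2 2.0.9 to mm9, and bedtools and edgeR were used. The counter, annotation and strand setting are not given in the sources used here. The authors deposited 1 table of 49492 gene symbols (18085 at 0 throughout, 26 turned into dates) with a signal value per library, CPM of a scaled library size. Plain CPM was planned for, but column totals varied between libraries. Columns marked minus and plus were read as normal and starved, as the study marks starvation. Every value was a whole number of reads within 0.1 (44422994 to 56363034 recovered reads in WT libraries), and 78.2% to 80.5% of counts from 1 to 9 were even, as when both mates are counted. Replicate libraries differed by more than sampling noise. Intervals of depth cover counting error only.

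The 16232 genes that reached a value of 1 in 2 or more of the 8 libraries were fitted in limma 3.58.1 (R 4.3.3) on log2(value + 1) with all 4 groups of 2 and a trended prior, with Benjamini-Hochberg adjustment over all genes and a threshold of 0.05. Fold changes are ratios of mean values, and log2 differences are on the log2(value + 1) scale, which understates changes of low genes. The members and the 61 lists (55 pathways, 6 marker lists, 1291 genes) were chosen with earlier results of these data known. Lists received no test. Genes were named by rule: the 8 largest rises and 8 largest falls with a mean of at least 10, each list's anchor genes, and up to 2 rises and 2 falls per list with a mean of at least 5. Overlapping genes were taken from exons of the GENCODE annotation. The fits were also run on simulated data in which far fewer genes changed than were called here. That run gives no error rate for these data. Alternatives were other pseudocounts, filters, scalings, groups in the fit, priors, thresholds and left-out libraries, a replicate block, and edgeR 4.0.16 and DESeq2 1.42.0 on recovered reads.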

Additional observations from a re-analysis of the deposited data

Results flagged for a closer look

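The starvation response of the WT line differed from that of the RA line, by the interaction term (RA response minus WT response, limma adjusted p below 0.05), for 3972 genes with the RA response above and 4235 with it below. Among genes that rose in WT cells the term was -0.46 for Ddit3, -0.89 for Hsp90b1, -1.07 for Calr, -0.85 for Map1lc3b, -0.88 for Mcoln1, -1.15 for Flcn and -0.67 for Rpl3. Among genes that fell in WT cells it was 1.07 for Ccnb1, 2.22 for Ccnd1, 1.75 for Col1a1, 3.13 for Thbs1, 2.03 for Ankrd1, 4.90 for Ifit1, 5.28 for Ifit3, 3.41 for Isg15, 3.64 for Irf7, 3.94 for Ccl2 and 3.67 for Cxcl10. These differences were tested between 2 lines with 2 libraries per group.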

How the results depend on the processing

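The count of 12756 genes called in the WT line ranged from 11617 to 14041 over the alternatives (edgeR 12705, DESeq2 12298) and from 11945 to 12062 without 1 WT library. The 3179 genes past 2-fold became 1886 with a pseudocount of 5, 4191 with 0.1, 4284 in edgeR and 4301 in DESeq2, and 3192 to 3221 without 1 library. The 8207 interaction calls ranged from 6223 to 8578. With a replicate block the counts were 12922, 3179 and 8578. The deviations of replicate 1 from its group mean, taken over genes, correlated by 0.0824 between normal and starved WT cells. The replicate numbers were therefore not taken to pair samples. Medians that changed sign were those of heat shock genes (-0.046 with total-read scaling, -0.034 with quantile normalization, -0.01 in edgeR), NRF2 genes (0.077 with quantile normalization, -0.009 to 0.046 without 1 library), secreted stress factors (0.076, and -0.107 to 0.072), insulin and IGF genes (0.165 with no filter) and fatty acid oxidation (-0.083 to 0.007 without 1 library, 0.007 being without WT starved replicate 1). Ruvbl1 changed sign at -0.061 (total reads), -0.027 (edgeR) and -0.011 to 0.03 without 1 library. Other uncalled genes that changed sign were Hspa1b (-0.033, total reads), Ncl (-0.02 and -0.051 with total reads and quantile normalization), Abca1 (0.001 with pseudocount 0.1, 0.165 quantile, -0.147 to 0.145 without 1 library) and Fn1 (-0.04 total reads, -0.127 quantile, -0.003 edgeR, -0.015 to 0.081 without 1 library). The interaction of Txnip turned to 0.272 (pseudocount 0.1), 0.028 (total reads), 0.359 (edgeR), 0.331 (DESeq2) and -0.122 to 0.063 (without 1 library), passed the threshold with pseudocount 5 (-0.314), and that of Herpud1 turned to 0.05 (total reads), 0.042 (quantile), 0.011 (edgeR) and -0.054 to 0.011 (without 1 library). The call of Col4a2 was lost at log2 differences of 0.08 (total reads), 0.095 (quantile), 0.114 and 0.099 (without WT normal replicate 2 or WT starved replicate 1), that of mt-Co1 with quantile normalization, that of Eif2ak4 without WT starved replicate 2 (-0.122), that of Hars under 3 alternatives, among them without WT normal replicate 2 (-0.104), and that of Mcm2 under 8, among them edgeR (0.056), DESeq2 (0.085) and all but 1 of the left-out libraries (0.072 to 0.094). Calls were gained for Mitf under 5 alternatives (0.158 to 0.462, the left-out WT normal replicate 1 and WT starved replicate 2 among them), Cpt1a under 3 and Arrdc4 with quantile normalization. The causes were not tested. Of 3984 values of single genes in WT, 3943 kept direction and side of the threshold. Of 13 motif and list pairs with a usable share, 12 lay above the share of tested genes, and 11 with the 250 bases upstream alone. With those 250 bases the E-box share of ribosome biogenesis genes went from 25.8% to 9.68%, against 9.7% of tested genes. At this depth values in WT libraries below 0.0548 to 0.0652 rest on under 3 reads.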
